A study of Mus musculus with 4 samples.

Results

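A set of 9 hormone receptor and related nuclear receptor genes, out of the 40999 features in the count tables, was followed through gonad development in the mouse. They were taken by gene symbol and not by a threshold on their values, but with earlier results of these data known. The members were the estrogen receptors Esr1 and Esr2, the progesterone receptor Pgr, the glucocorticoid receptor Nr3c1 and the mineralocorticoid receptor Nr3c2. The others were the luteinizing hormone receptor Lhcgr, the prolactin receptor Prlr, and Nr2f1 and Nr2f2, which encode COUP-TFI and COUP-TFII. Total RNA of C57BL/6J wild-type embryonic gonads had been sequenced daily from E11.5 to E14.5, with 1 library for each day. Each library was a pool from 2 litters, with 6 or more gonads of each sex, so XX and XY gonads cannot be told apart. The mesonephros, the transient kidney beside the gonad, was part of the E11.5 pool and of no later pool. There were no replicate libraries, so the values compare libraries and not days, and every interval given covers counting error only.

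Steroid receptors sit inside the cell and bind DNA as ligand-activated transcription factors, whereas the luteinizing hormone receptor is a G protein-coupled receptor at the cell surface that signals mainly through cAMP, and the prolactin receptor is a cytokine receptor that signals through JAK2 and STAT5. Fetal Leydig cells of the testis, which make androgens, are known for expression of Lhcgr, while estrogen and progesterone receptors act in the genital tract and adult gonad of both sexes. The COUP-TFs belong to the same superfamily as the steroid receptors but have no established physiological ligand, and COUP-TFII is known as a factor of mesenchymal and interstitial cells.

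The libraries held between 25593453 and 31752562 deduplicated counts, and 3 counts corresponded to between 0.0945 and 0.117 CPM, which are counts divided by the library total on the usual scale. Ribosomal RNA genes took 48.93% of the counts at E14.5, against between 8.725% and 17.75% in the other libraries. Levels of different genes are given below as the deposited TPM, a transcript share that corrects for gene length but counts ribosomal RNA in its total. Levels of a gene in different libraries are given as scaled CPM, for which TMM scaling (trimmed mean of M values) places the bulk of the features at the same level. A gene was called when its TMM-scaled log2 fold change was at least 1 in size, which is 2-fold, and the exact Clopper-Pearson 95% interval of that change left out 0. With scaling by total counts, the median of all features tested shifted by 0.16, 0.03 and -1.08 on the log2 scale for E12.5 against E11.5, E13.5 against E12.5 and E14.5 against E13.5. With the deposited TPM, these shifts were 0.28, 0.13 and -1.64.

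The sequence before the transcription start is shown for Lhcgr and Prlr, the members that moved most, and Nr2f2, the most abundant, so that the motifs of nuclear receptors can be read in place. The sequences are from RefSeq (GRCm38.p6) and run 5′ to 3′ on the strand of the gene. Each was taken from the 250 bases before a RefSeq start, less any bases inside the gene span of the count tables. Capitals mark the nuclear receptor hexamer AGGTCA, which reads TGACCT on the other strand, and the steroid receptor hexamer TGTTCT, which reads AGAACA on the other strand. They also mark the GC box GGGCGG, for which the other strand reads CCGCCC, and the core promoter motif TATAAA, for which the other strand reads TTTATA. Lhcgr is shown for chr17:88792060-88792264 (minus strand), Prlr for chr15:10176988-10177237 (plus strand, the start farthest 5′) and Nr2f2 for chr7:70366747-70366996 (minus strand).
Lhcgr: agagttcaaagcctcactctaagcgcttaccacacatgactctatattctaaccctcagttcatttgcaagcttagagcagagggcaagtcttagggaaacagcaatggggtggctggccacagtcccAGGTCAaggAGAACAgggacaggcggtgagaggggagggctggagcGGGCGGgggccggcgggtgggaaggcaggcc
Prlr: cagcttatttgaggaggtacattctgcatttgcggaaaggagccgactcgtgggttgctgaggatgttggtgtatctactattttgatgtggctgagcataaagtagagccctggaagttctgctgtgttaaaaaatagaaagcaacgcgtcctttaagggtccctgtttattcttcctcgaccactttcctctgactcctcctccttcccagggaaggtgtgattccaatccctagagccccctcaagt
Nr2f2: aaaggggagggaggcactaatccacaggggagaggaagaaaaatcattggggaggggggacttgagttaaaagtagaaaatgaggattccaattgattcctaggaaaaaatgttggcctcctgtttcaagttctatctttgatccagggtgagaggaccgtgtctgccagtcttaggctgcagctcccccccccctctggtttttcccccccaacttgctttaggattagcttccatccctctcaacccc

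The full windows of 250 bases were searched, 12 of them for 8 members, and no window of Nr3c1 was searched. The RefSeq starts did not all coincide with the ends of the counted genes, and 7 windows lay wholly inside the gene span of the count tables (Nr3c2, Pgr, both of Nr2f1, the later one of Esr1 and the later ones of Prlr), while the Lhcgr window had 45 bases inside it. AGGTCA or its complement occurred in the Lhcgr window alone, at positions -122 to -117 counted from the start. It was found in 14% of 32817 windows of the same length before annotated mouse starts. In the Lhcgr window the hexamer AGAACA followed at positions -113 to -108, without overlap between the motifs. This hexamer was found in 16.1% of all windows and, among the members searched, also before the second start of Prlr, at -12 to -7. GC boxes were most frequent before Lhcgr, with 4 copies beginning at -76, -42, -25 and -12, of which the copy at -76 alone lay outside the counted gene span, and Nr3c2 had 3 copies, while Nr2f1 and Pgr had 1 each. At least 1 copy was present in 32.7% of all windows. The TATAAA motif was matched in the Pgr window alone, on the other strand at -212 to -207, and in 12.4% of all windows. The GC content of the full windows was 63.2% before Lhcgr, 72% and 39.6% before the starts of Nr2f1, 50% before Nr2f2 and 48% before the first start of Prlr. None of the windows printed for Prlr and Nr2f2 held any of these motifs, and no binding was measured in these libraries.

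From E11.5 to E12.5, 5 of the 9 members were called, beside 16.2% of the 19215 features tested. Prlr, Lhcgr, Esr2 and Nr3c2 rose and Nr2f1 fell. The median log2 change of the members was 0.64, against 0.00 over all features tested, of which 1521 rose and 1592 fell. From E12.5 to E13.5, 3 members were called, beside 3.91% of 19152 features, and Lhcgr, Prlr and Pgr all rose, with a median over the 9 members of 0.44. From E13.5 to E14.5 no member was called, beside 7.33% of 18992 features, and the median of the members was 0.30. Under total counts that median was -0.78, and Nr3c2 and Nr2f1 were called lower, as were 11256 of the 18992 features. From E12.5 to E14.5, which shares its libraries with the steps between, 4 members rose, beside 10.3% of 18704 features called. These were Lhcgr, Prlr, Esr1 and Pgr, of which Esr1 and Pgr were no longer called under total counts (log2 changes of 0.27 and 0.28) and none was called higher with the deposited TPM. Neighbouring steps share a library as well. Under edgeR's exact test with a preset coefficient of variation between replicates, which these libraries cannot supply, the calls of the first step were the same 5 at 0.1 and 0.2, and at 0.4 they were Lhcgr and Prlr. In the second step the test called Lhcgr and Prlr at 0.1 and no member at 0.2 or 0.4, so the call of Pgr ended at 0.1. Between E12.5 and E14.5 it called the same 4 at 0.1, lost Pgr at 0.2 and called none at 0.4.

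**Figure D1:**
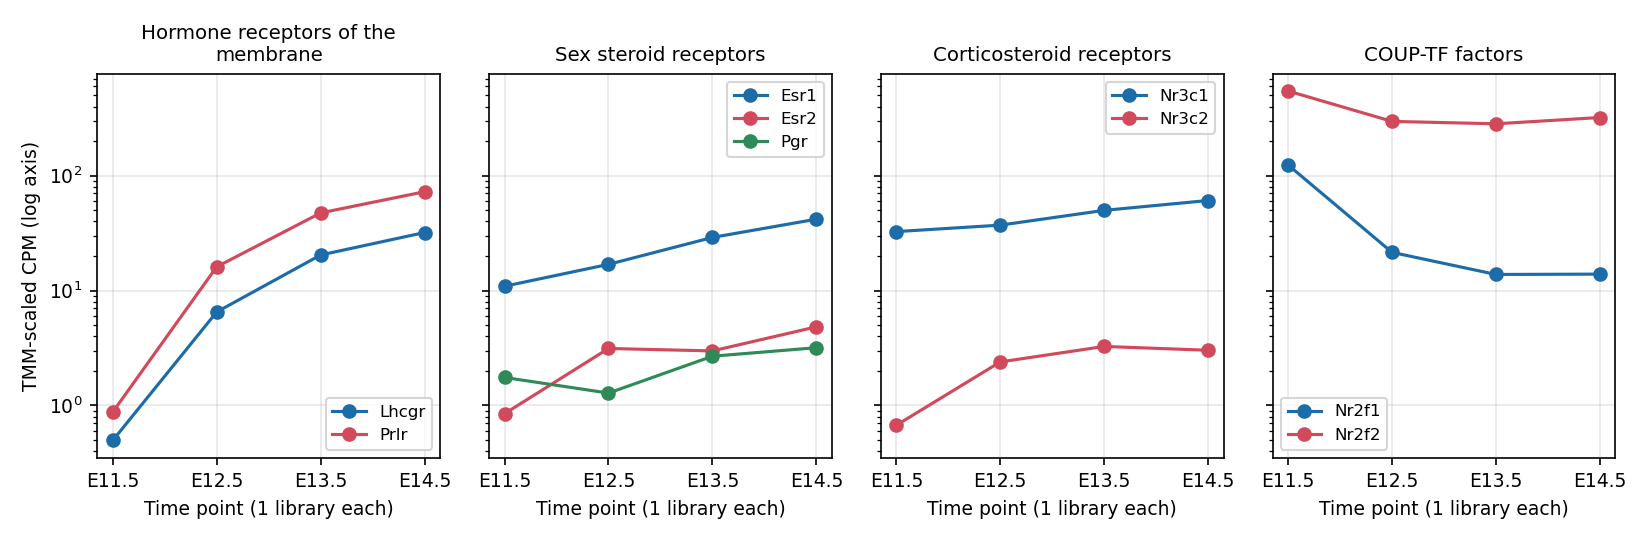
Level of each of the 9 members in the 4 libraries, with embryonic day on the x axis and scaled CPM on a log y axis. Lhcgr and Prlr climb from under 1 CPM at E11.5 to 32 and 72.5 CPM at E14.5, while Nr2f1 drops from 124 to 13.9 CPM.

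Lhcgr (chr17:88741132-88792059 in mm10, minus strand) had 17 counts in the E11.5 library, then 204, 807 and 603 on the following days. In scaled CPM these were 0.496, 6.51, 20.4 and 32, and in TPM 0.251, 4, 13.7 and 7.03. The level was lowest at E11.5 and above it in all later libraries, whereas the order of E13.5 and E14.5 differed between the scales. Lhcgr rose 13-fold from E11.5 to E12.5 (95% interval 7.99 to 23, log2 change 3.70) and a further 3.13-fold to E13.5 (2.68 to 3.67, log2 change 1.65). Its log2 change to E14.5 was 0.67 (0.51 to 0.82), which became -0.41 under total counts and -0.97 with the deposited TPM.

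Prlr (chr15:10177238-10349180, plus strand) had 30, 506, 1879 and 1367 counts in the same order of days. In scaled CPM it was at 0.876, 16.1, 47.4 and 72.5, and in TPM at 0.095, 2.13, 6.87 and 3.42. Of all 9 members Prlr had the widest range of scaled CPM, 82.8-fold between the lowest and the highest library, with Lhcgr next at 64.5-fold. Prlr rose 18.4-fold from E11.5 to E12.5 (12.8 to 27.6, log2 change 4.20) and 2.94-fold to E13.5 (2.66 to 3.25, log2 change 1.56). Its log2 change to E14.5 was 0.63 (0.53 to 0.73), or -0.45 under total counts and -1.01 with the deposited TPM.

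The levels of these peptide hormone receptors kept close to a fixed ratio after E11.5, a comparison within each library that no scaling can move. Per length, Lhcgr was 1.88 times Prlr at E12.5 (1.59 to 2.21), then 2 times (1.84 to 2.17) and 2.05 times (1.86 to 2.26). The size of this ratio depends on the exon lengths of the count tables, 3055 bases for Lhcgr and 14221 for Prlr. In raw counts Prlr exceeded Lhcgr in every library. At E11.5 the ratio was 2.64 with a wide interval (1.36 to 4.94) that held the later values. From E12.5 to E14.5, Lhcgr rose 4.96-fold (4.23 to 5.85) and Prlr 4.54-fold (4.1 to 5.04), and under total counts both were still called higher, with their log2 changes of 2.31 and 2.18 reduced by the common shift of -1.05, whereas with the deposited TPM the changes were 0.81 and 0.68 and were not called.

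Esr1 (chr10:4612046-5005614, plus strand), which encodes estrogen receptor alpha, had 372, 529, 1150 and 787 counts in order of days. Its scaled CPM was 10.9, 16.9, 29 and 41.8, and its TPM 2.06, 3.9, 7.35 and 3.44. The E11.5 library was the lowest on both scales. The log2 changes between neighbouring days were 0.64 (0.44 to 0.83), 0.78 (0.63 to 0.93) and 0.54 (0.41 to 0.67), each under the 2-fold threshold, and the last was -0.54 under total counts and -1.09 with the deposited TPM. From E12.5 to E14.5 Esr1 rose 2.5-fold (2.24 to 2.8), a call that ended under total counts, and with the deposited TPM the log2 change was -0.18.

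Esr2 (chr12:76120419-76177259, minus strand), which encodes estrogen receptor beta, was counted 29, 98, 118 and 91 times. Its scaled CPM was 0.847, 3.13, 2.98 and 4.83, and its TPM 0.389, 1.75, 1.83 and 0.964. E11.5 was again the lowest library. Esr2 rose 3.68-fold from E11.5 to E12.5 (2.42 to 5.8, log2 change 1.88) and had a log2 change of -0.07 to E13.5 (-0.47 to 0.33), which was 0.06 with the deposited TPM. The change to E14.5 was 0.71 (0.30 to 1.12), with -0.36 under total counts and -0.92 with the deposited TPM.

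Within each library Esr1 lay above Esr2 per length. The Esr1 to Esr2 ratio of TPM was 5.3 on the first day (3.63 to 8.02), then 2.23 (1.79 to 2.8), 4.03 (3.33 to 4.91) and 3.57 (2.87 to 4.49). The interval at E12.5 did not overlap the intervals of the other 3 libraries, which overlapped each other. The 2 estrogen receptors thus differed least at E12.5.

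Pgr (chr9:8899488-8968611, plus strand), a classical estrogen-induced gene in the female tract, had the lowest TPM of the members from E12.5 onward, at E14.5 not beyond counting error. It was counted 60, 40, 106 and 60 times, which gave 1.75, 1.28, 2.68 and 3.18 scaled CPM and 0.373, 0.331, 0.76 and 0.294 TPM. The log2 change from E11.5 to E12.5 was -0.46 (-1.07 to 0.14), with an interval that held 0. Pgr rose 2.09-fold from E12.5 to E13.5 (1.45 to 3.1) and had a log2 change of 0.27 to E14.5 (-0.21 to 0.74), with -0.81 under total counts and -1.37 with the deposited TPM. From E12.5 to E14.5 it rose 2.51-fold (1.66 to 3.86), and this call ended under total counts and turned to a log2 change of -0.17 with the deposited TPM. The Esr1 to Pgr ratio of TPM was 5.53 at E11.5 and between 9.67 and 11.8 in the later libraries.

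**Figure D2:**
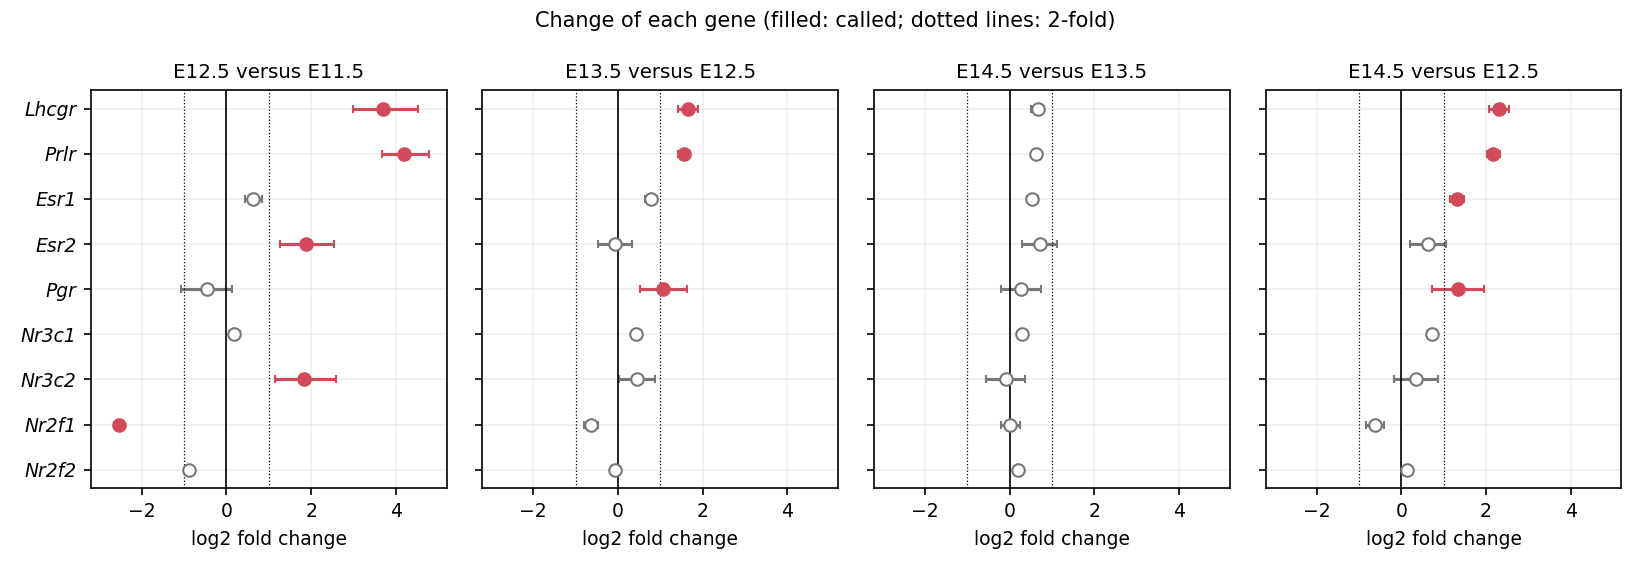
TMM-scaled log2 fold change of each member in the 4 comparisons, with bars for the exact 95% counting interval and dotted lines at the 2-fold threshold. Prlr and Lhcgr lie farthest to the right at E12.5 against E11.5 (4.20 and 3.70), Nr2f1 lies farthest to the left (-2.53), and no member passes the threshold between E13.5 and E14.5.

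Nr3c1 (chr18:39410545-39519416, minus strand), the receptor of corticosterone in the mouse, varied least of the members, with a highest scaled CPM 1.86 times its lowest. Its counts were 1116, 1162, 1977 and 1145, with 32.6, 37.1, 49.9 and 60.8 scaled CPM and 6.25, 8.66, 12.8 and 5.07 TPM. The log2 changes between neighbouring days were 0.19 (0.07 to 0.31), 0.43 (0.32 to 0.54) and 0.30 (0.20 to 0.41), and the last became -0.78 under total counts and -1.33 with the deposited TPM. Every interval left out 0 and none reached the 2-fold threshold.

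Nr3c2 (chr8:76900240-77245012, plus strand), which encodes the receptor of aldosterone that also binds corticosterone, was the less abundant corticosteroid receptor in each library. Its counts were 23, 75, 129 and 57, with 0.672, 2.39, 3.26 and 3.02 scaled CPM and 0.177, 0.769, 1.15 and 0.347 TPM. E11.5 was the lowest library on both scales. Nr3c2 rose 3.55-fold from E11.5 to E12.5 (2.21 to 5.96, log2 change 1.83), and had log2 changes of 0.44 to E13.5 (0.02 to 0.88) and -0.09 from E13.5 to E14.5 (-0.56 to 0.37). Under total counts the latter was -1.17 and was called.

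The Nr3c1 to Nr3c2 ratio of TPM was 35.3 at E11.5 (23.4 to 55.9) and stood at 11.3 (8.91 to 14.4), 11.1 (9.32 to 13.4) and 14.6 (11.2 to 19.4) on the following days. The E11.5 interval lay above the other 3, which overlapped each other. Against Esr1, the TPM of Nr3c1 was 3.04 times as high at E11.5, then 2.22, 1.74 and 1.47 times, so the levels of these receptors were nearest to each other at E14.5.

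**Figure D3:**
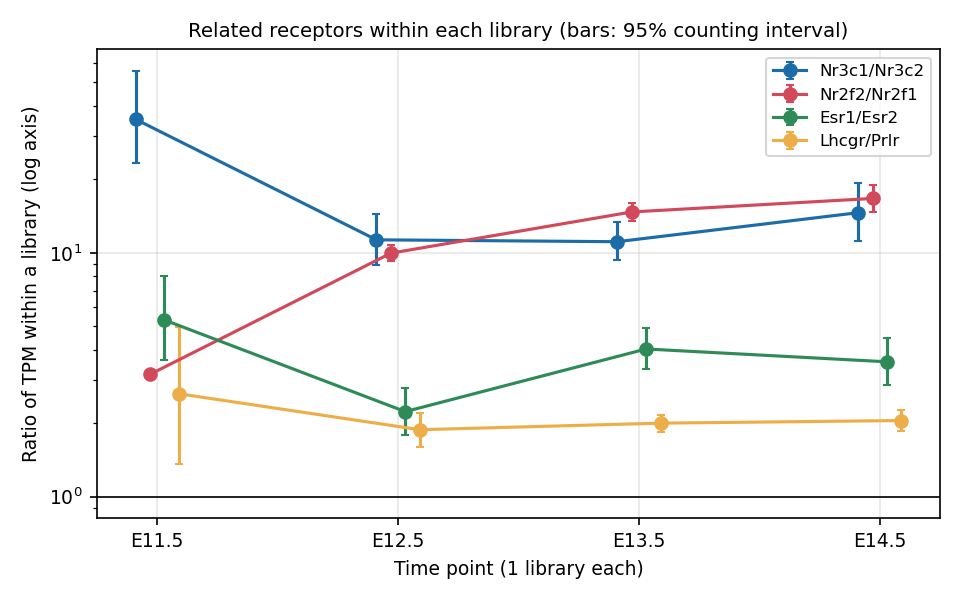
Ratio of TPM between paired members within each library, with embryonic day on the x axis, a log y axis and bars for the exact 95% counting interval. The Nr2f2 to Nr2f1 ratio climbs from 3.17 to 16.7, the Nr3c1 to Nr3c2 ratio drops from 35.3 to 11.3 between E11.5 and E12.5, and Lhcgr to Prlr stays between 1.88 and 2.64.

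Nr2f1 (chr13:78188971-78199172, minus strand) had 4247 counts at E11.5 and 673, 548 and 261 counts later. Its scaled CPM was 124, 21.5, 13.8 and 13.9, and its TPM 45.6, 9.63, 6.8 and 2.22. The E11.5 library, the one that included the mesonephros, stood far above the other 3. Nr2f1 fell from E11.5 to E12.5, by 2.53 on the log2 scale (5.77-fold, 5.32 to 6.27), the largest drop among the members. Its log2 change to E13.5 was -0.63 (-0.80 to -0.47), and that to E14.5 was 0.02 (-0.20 to 0.24), which turned to -1.06 under total counts, -1.62 with the deposited TPM and -0.04 once ribosomal RNA and the 10 most abundant features were left out of the totals. Between E12.5 and E14.5 the log2 change of Nr2f1 was -0.62 (-0.83 to -0.41), which was not called, whereas it was called lower under total counts (-1.67) and with the deposited TPM (-2.12). Nr2f1 shares 103 exon bases with the antisense gene A830082K12Rik on the opposite strand, which had 371, 74, 99 and 48 counts. The libraries were stranded.

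Nr2f2 (chr7:70351946-70366746, minus strand) was the most abundant member in every library. Its counts were 18690, 9321, 11190 and 6057, with 546, 297, 283 and 321 scaled CPM and 144, 95.9, 99.9 and 37 TPM. The E11.5 library was the highest, and the 3 later libraries differed little in scaled CPM. From E11.5 to E12.5 the level was 1.83-fold lower (1.79 to 1.88, log2 change -0.88), under the 2-fold threshold. The later log2 changes were -0.07 (-0.11 to -0.03; 0.06 with the deposited TPM) and 0.20 (0.16 to 0.25), the last of them -0.88 under total counts and -1.43 with the deposited TPM. The annotated span of Nr2f2 overlaps B130024G19Rik with 0 shared exon bases.

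Since Nr2f1 dropped further than Nr2f2, the Nr2f2 to Nr2f1 ratio of TPM was 3.17 at E11.5 (3.06 to 3.27), 9.96 at E12.5 (9.21 to 10.8), then 14.7 and finally 16.7 at E14.5 (14.7 to 19). The first 3 intervals did not overlap, while those of E13.5 and E14.5 did. The Nr2f2 to Lhcgr ratio moved from 576 at E11.5 to 24, 7.27 and 5.27, and Lhcgr ranked next after Nr2f2 in the E13.5 and E14.5 libraries.

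The order of the members by TPM changed with the day. At E11.5 it ran Nr2f2, Nr2f1, Nr3c1, Esr1, Esr2, Pgr, Lhcgr, Nr3c2 and Prlr, in which the intervals of the ratios between Esr2 and Pgr, Pgr and Lhcgr, and Lhcgr and Nr3c2 held 1. At E12.5 it ran Nr2f2, Nr2f1, Nr3c1, Lhcgr, Esr1, Prlr, Esr2, Nr3c2 and Pgr, without a difference beyond counting error between Lhcgr and Esr1 or between Prlr and Esr2. At E13.5 Lhcgr and Nr3c1 (ratio 1.07, 0.989 to 1.17) followed Nr2f2, and then came Esr1, Prlr and Nr2f1, whose neighbours did not differ beyond counting error either. At E14.5 Lhcgr exceeded Nr3c1 1.39-fold (1.25 to 1.53), Esr1 and Prlr did not differ (1.01, 0.92 to 1.1), and Nr3c2 and Pgr at the low end did not differ (1.18, 0.806 to 1.72). Among the 49 nuclear receptor genes, which leaves out Lhcgr and Prlr, Nr2f2 ranked 1 at E11.5 and 2 on each later day. Nr2f1 ranked 2 at E11.5 and 14, 21 and 19 thereafter, Nr3c1 moved from 18 to 11 and Esr1 from 23 to 14, and Esr2, Pgr and Nr3c2 held ranks between 29 and 44.

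Likeness of pattern was measured as the root mean square distance between centred log2 scaled CPM over the 4 libraries, among 14069 features with at least 100 counts in a library. The feature nearest to both Lhcgr and Prlr was Kcnk3, a potassium channel gene with 41, 586, 2128 and 1431 counts, at a distance of 0.13 from each. Lhcgr and Prlr came next to each other at 0.21, and only 4 and 3 features lay within 0.25 of them. Nr2f1 was nearest to Dach2 (0.06), which had 506, 72, 64 and 30 counts, and to Rxfp2 (0.14), with 19 features within 0.25. Esr1 was nearest to Ctsl (0.04) and Dhcr7 (0.06), Esr2 to Pla2g5 (0.08) and C1ra (0.12), Pgr to Stom (0.06) and Abcg4 (0.07), and Nr3c2 to Efhd1 and Ddx58 (0.05 each). The flatter patterns were shared widely: 1513 features lay within 0.25 of Nr3c1 (nearest Pcdh9, 0.01) and 1410 within 0.25 of Nr2f2 (nearest Atp2b1, 0.02). With 4 libraries, these distances describe the libraries only.

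Other genes of the receptor pathways were counted from lists of known members. Under TMM scaling, 16.2%, 3.91% and 7.33% of all features tested were called in the steps to E12.5, E13.5 and E14.5. Of the 42 other nuclear receptor genes, 38 were tested from E11.5 to E12.5, where 10 rose and 6 fell, with a median log2 change of 0.17 against 0.64 for the 9 members. Among called genes that reached 100 counts in either library, the largest changes in this list were those of Rarb (-3.14) and Esrrg (-2.01), a retinoic acid and an estrogen-related receptor, which fell, and of Esrrb (2.48) and Nr4a3 (2.26), which rose. Nr0b2, with 12 and 74 counts, rose by 2.74. In the following step, 0 of 39 rose and 1 fell (Hnf4a, with 29 and 2 counts). From E13.5 to E14.5, 2 of 37 were called higher and 1 lower, whereas under total counts none was called higher and 24 were called lower. Total counts called 11256 of all 18992 features tested lower in that step.

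Genes of the partners that hold and assist steroid receptors were counted next. In the first step, where 16.2% of all features were called, the median log2 changes were 0.14 for the chaperones, 0.08 for the coregulators, 0.34 for the membrane steroid receptors and 0.17 for the glucocorticoid-responsive genes, against 0.00 over all features. Of 11 chaperones and immunophilins, Fkbp5 (1.10) alone was called at E12.5 against E11.5, where it rose, and none of the 11 was called in either of the next steps under TMM scaling. Of 10 coregulators, Ncoa1 (1.07), a coactivator, was called in the first step and none in the next steps under TMM scaling. All 10 coregulators and all 11 chaperones were called lower at E14.5 against E13.5 under total counts. So were 11256 of all 18992 features tested, with a median shift of -1.08. Of 8 membrane steroid receptors, 3 rose in the first step, Paqr7 (1.48), Paqr9 (1.39) and Gper1 (1.28), the last with 8 and 18 counts. In the next step, with 3.91% of all features called, Gper1 (18 and 47 counts) rose again and Paqr5 (33 and 17 counts) fell. Of 9 glucocorticoid-responsive genes, Fkbp5 rose and Zbtb16 fell by 1.49 in the first step, and Mt1 (1.11) rose in the next.

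On the side of prolactin signalling, Socs2 (2.46) and Socs3 (1.26), feedback inhibitors of JAK-STAT signalling, rose among 9 genes tested from E11.5 to E12.5 (median 0.11). In that step 16.2% of all features tested were called, and in the next steps 3.91% and 7.33%. Socs3 (1.09) rose again to E13.5, and none of the 9 was called from E13.5 to E14.5 under TMM scaling, against 4 lower under total counts. Jak2, which had 1638, 1386, 1916 and 861 counts, and Stat5b, which had 832, 713, 1070 and 601, were present in all libraries and were not called in these steps under TMM scaling. On the side of gonadotropin signalling through cAMP, the adenylyl cyclase genes Adcy7 (2.12) and Adcy9 (1.58) and the protein kinase A subunit gene Prkar2b (1.09) rose and Adcy8 fell by 1.94, of 20 genes tested in the first step (median -0.06). Prkar2b (1.28) was the gene of that list that rose in the next step. From E13.5 to E14.5, Adcy8 (2.70), Adcy5 (1.24) and Adcy2 (1.09) rose under TMM scaling, where total counts left 1 gene higher and 10 lower. Over all 18992 features tested, total counts called 277 higher and 11256 lower in that step.

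Of 13 pituitary hormone and receptor genes, 6 were tested in the first step, with a median of 0.09. The shares of all features tested that were called in the steps to E12.5, E13.5 and E14.5 were 16.2%, 3.91% and 7.33%. Lhb, with 1 and 14 counts, was called higher, and Cga, with 16 and 4 counts, lower. Lhb and Cga each passed the filter of 10 counts only through the library where its count was higher. These are the genes of the beta subunit of luteinizing hormone and of the alpha subunit shared by the glycoprotein hormones, and they were singled out after their values were seen. Ghr, the growth hormone receptor gene, had 2634, 1900, 2273 and 1216 counts. Prl, the gene of the ligand of Prlr, had at most 1 count in any library and Gh had 0 counts in all 4, which allows up to 0.117 CPM in the shallowest library. The follicle-stimulating hormone receptor gene Fshr, singled out after its values were seen, had 0, 12, 29 and 34 counts, so it was far below Lhcgr in each library from E12.5 on. Of 10 steroid synthesis genes tested from E11.5 to E12.5, 7 rose and 1 fell (Srd5a2, with 16 and 5 counts), with a median of 2.49. Cyp17a1, needed for androgen synthesis, rose by 8.26 from 5 to 1437 counts, Hsd3b1 by 5.87, Hsd17b3 by 4.76, and Star, the cholesterol transport gene, by 2.68. From E12.5 to E13.5, 6 of 12 rose and 1 fell, with a median of 1.15. From E13.5 to E14.5, 3 of 12 rose and 1 fell, whereas under total counts 0 rose and 3 fell. Of all 18992 features tested, total counts called 277 higher and 11256 lower.

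Markers of cell types moved with the same libraries. The summed scaled CPM of 5 Leydig cell markers was 12.8, 164, 679 and 1120 on the 4 days, beside 0.496, 6.51, 20.4 and 32 for Lhcgr and 0.876, 16.1, 47.4 and 72.5 for Prlr. All 5 rose in each of the first 2 steps, and Insl3 had 0 counts at E11.5. The 8 markers of the nephric duct and mesonephric tubules summed to 143 at E11.5 and to between 18.1 and 25.1 later, and 6 of 8 fell at E12.5 (median -3.09), in the same step as Nr2f1. The presence of mesonephros at E11.5 and the earlier day cannot be told apart in that step. The 6 stromal markers summed to 495, 859, 900 and 1197 while Nr2f2 stood at 546, 297, 283 and 321. The 5 gonadal somatic markers summed to between 685 and 1079 in all libraries.

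Sertoli markers (4 genes) summed to 84.2, 519, 438 and 479, pregranulosa markers (5) to 128, 177, 228 and 190, and germ cell markers (5) to 63, 348, 424 and 324. Each sum was lowest at E11.5, as were Esr1, Esr2, Nr3c1, Nr3c2, Lhcgr and Prlr. Single markers differed: Wnt4 (72) and Rspo1 (24) were highest at E11.5, and Kit (42.4) and Sox9 (79.1) were lowest at E14.5. The other markers of these lists were each lowest at E11.5. The 5 adrenal cortex markers summed to between 3.25 and 17.4. From E12.5 to E13.5, 3 of the 4 tested rose, beside 3.91% of all features called, among them Cyp11b1 with 1 and 80 counts. Endothelial markers (5) summed to between 238 and 353, macrophage markers (4) to between 16.8 and 36.8, and sympathetic neuron and chromaffin markers (4) to between 9.87 and 24.4. Each of these sums was highest at E11.5, though Pecam1, Cdh5 and Sox10 were highest at E12.5. The sum of erythroid markers (5) ran from 327 to 1132. The part of any of these lists in the changes of the members was not tested, and in pooled tissue fewer cells of a type and less RNA per cell cannot be told apart.

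**Figure D4:**
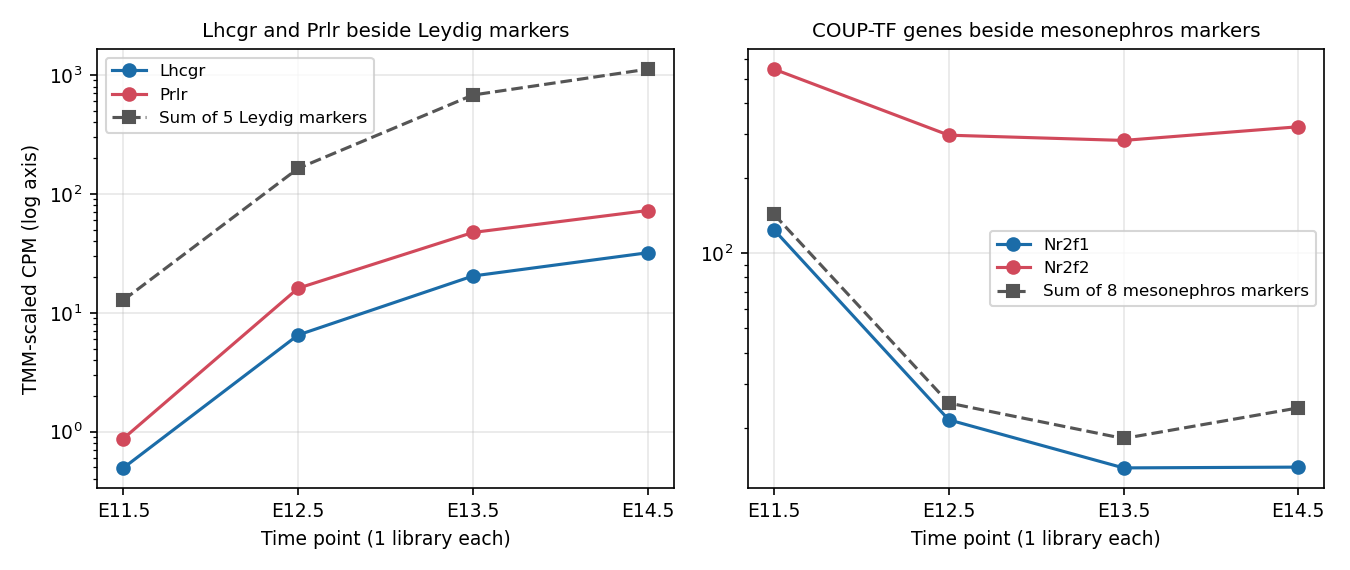
Scaled CPM on a log y axis against embryonic day. Lhcgr and Prlr are shown beside the sum of 5 Leydig cell markers, and Nr2f1 and Nr2f2 beside the sum of 8 mesonephric markers. The Leydig sum climbs from 12.8 to 1120 CPM together with both receptors, and Nr2f1 and the mesonephric sum are each highest at E11.5 (124 and 143 CPM).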

How the data were processed

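Gonads of both sexes were pooled at each of 4 days and total RNA was sequenced as 1 library per day, grouped by the deposited labels. The authors depleted rRNA, built stranded UMI libraries, aligned reads to mm10 with STAR, removed duplicates with UMI-tools and ran featureCounts, whose deposited counts were used here. Versions and the annotation release are not given in the sources used here. The deposited TPM, made by the authors from counts and exon lengths, was recomputed and matched. The deposited RPKM was not used.

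Features kept by filterByExpr (at least 10 counts) were scaled by TMM for each pair of libraries in edgeR 4.0.16 (R 4.3.3), and log2 fold changes used a prior count of 0.125. Levels used TMM factors of all 4 libraries. Calls followed the fold and interval rule of the text, since the dispersion cannot be estimated with 1 library per day. The steps were tested on simulated data. Alternatives were DESeq2 1.42.0 size factors, total counts as they are or after rRNA and the top 10 features were left out, deposited TPM, TMM of all 4 libraries, another filter (none, or 10 counts or more in both libraries), a prior count of 2, and edgeR's exact test with preset coefficients of variation of 0.1, 0.2 and 0.4 at a false discovery rate of 0.05. Intervals came from scipy 1.17.1.

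All 9 members were named, with at most 4 called genes per list and comparison (at least 100 counts) and the 2 nearest features in pattern. Jak2, Stat5b, Ghr, Prl, Gh, Lhb, Cga, Fshr, Insl3, Hnf4a, Srd5a2, Paqr5, Paqr9, Nr0b2, Gper1 and Cyp11b1 fall outside this rule in part or whole. Members, lists and rules were chosen with earlier results of these data known. Gene spans are those of the count tables, and promoter windows are from RefSeq GRCm38.p6.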

Additional observations from a re-analysis of the deposited data

How the results depend on the processing

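No paired analysis was possible because each day has 1 library, and for the same reason no library could be left out of a comparison. Of 288 fold values of the members under the alternatives, 251 kept direction and call, 29 reversed, 4 lost and 4 gained a call. All reversals but that of Nr2f1 (-0.04, total counts without rRNA and the 10 most abundant features) came with total counts or the deposited TPM, both of which hold rRNA in their totals. From E13.5 to E14.5, total counts gave Esr1 -0.54, Esr2 -0.36, Pgr -0.81, Nr3c1 -0.78, Nr2f1 -1.06, Nr2f2 -0.88, Lhcgr -0.41 and Prlr -0.45, and TPM gave -1.09, -0.92, -1.37, -1.33, -1.62, -1.43, -0.97 and -1.01 in this order. From E12.5 to E14.5, total counts gave Esr2 -0.41, Nr3c1 -0.32, Nr3c2 -0.70 and Nr2f2 -0.92, and TPM gave Esr1 -0.18, Esr2 -0.86, Pgr -0.17, Nr3c1 -0.77, Nr3c2 -1.15 and Nr2f2 -1.37. From E12.5 to E13.5, TPM gave 0.06 for Esr2 and for Nr2f2. Of 18992 features tested from E13.5 to E14.5, total counts called 11533 (277 higher and 11256 lower) and TPM 16903 (141 and 16762). Of the 9 members, 2 and 7 were called, all lower. Of 18704 features tested from E12.5 to E14.5, total counts called 10395 (403 and 9992) and TPM 15396 (240 and 15156). There, 3 members were called lower by TPM (Nr3c2, Nr2f1 and Nr2f2). Total counts called Lhcgr and Prlr higher and Nr2f1 lower there. From E11.5 to E12.5, TPM gave 3295 (2181 higher and 1114 lower). At least 10 counts in both libraries left 488 features from E12.5 to E13.5, where fewer features were tested.

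With edgeR's exact test the call depended on the preset coefficient of variation. At 0.1 it called 360 features from E12.5 to E13.5 and 925 from E13.5 to E14.5. At 0.2 it called 1822 features from E11.5 to E12.5, 54 with 0 members from E12.5 to E13.5, 479 from E13.5 to E14.5 and 817 from E12.5 to E14.5. At 0.4 it called 286 features with 2 members (Lhcgr and Prlr), 1 with 0 members, 31, and 72 with 0 members, in the same order. The true spread between litters was not measured, so members near the 2-fold threshold, such as Pgr with 40 to 106 counts, rest on the chosen rule, and Esr2, Nr3c2 and Pgr are limited by counts at or under 129.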
